A study of Homo sapiens with 12 samples.

Results

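The cytosolic ribosomal protein genes encode the proteins of the large and small ribosomal subunits. They were taken here as the rows of the array whose platform gene symbol follows the RPL and RPS pattern, with RPLP0, RPLP1, RPLP2 and RPSA allowed and with pseudogenes and the RPS6 kinases left out. Of the 14884 genes named on the array, 52 met this rule, 34 of the large and 18 of the small subunit. They were covered by 59 rows, and the row with the highest mean over all 12 arrays stood for each gene. RefSeq lists 86 protein-coding genes of this pattern, and the other 34, among them the stalk genes RPLP0, RPLP1 and RPLP2, RPL5, RPL3 and RPSA, were not analysed here.

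Gene expression was measured with Affymetrix Human Gene 2.0 ST arrays in HEK293 cells, a human embryonic kidney line transformed with adenovirus DNA. One group of 6 arrays came from cells transfected with Syn-hsa-miR-1825, a synthetic RNA that acts as the microRNA miR-1825 (mimic-1825), and the other group of 6 from cells transfected with AllStars Negative Control siRNA (control). Both RNAs were used at 5 nM with the HiPerfect reagent, RNA was taken after 24 h, and no untransfected arrays were included. Whether the 6 RNAs of a treatment stem from different cultures is not stated, so the p-values reflect the scatter among these samples and possibly no more than technical scatter. The series title names the aim as the search for mRNA targets of miR-1825, which it links to amyotrophic lateral sclerosis. All levels below are log2 values as deposited, and all differences are mimic minus control on that scale.

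A microRNA guides the Argonaute proteins to mRNAs, mainly by pairing of its seed with sites in the mRNA, and lowers their translation or stability. The sequence the mimic copies is shown because it defines the treatment. It is that of RefSeq (GRCh38.p14, chr20:32237830-32237847, plus strand), with the seed, bases 2 to 8, in capitals.
hsa-miR-1825: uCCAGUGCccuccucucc
Pairing of this seed with ribosomal protein mRNAs was not analysed here.

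Ribosomal protein mRNAs are among the most abundant of a growing cell, and their subunits are made in equal numbers. Most of them begin with a C followed by a run of pyrimidines, the terminal oligopyrimidine (TOP) tract, through which the kinase mTOR and the RNA-binding protein LARP1 control their translation together. RefSeq's promoter table held the start of 47 of the 52 genes, and RPL30, RPL39L, RPL3L, RPL8 and RPS15A had no entry. At the annotated first base, 29 of the 47 (61.7%) had a C followed by at least 4 further C or T bases, against 4.07% of 35116 promoters read on the gene's strand in the same way. A run of at least 8 C or T bases lay within 15 bases on either side of the start in 34 of the 47 (72.3%) and in 13.7% of all promoters. The C start was present in 18 of 30 large-subunit genes and 11 of 17 small-subunit genes. It was present in 1 of 5 paralogs, the genes of the L series that resemble a standard ribosomal protein.

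The starts of 4 genes are shown as examples. RPL31, RPL6 and RPS27L had the smallest p-values of all members, and RPL34 was among the 3 that varied least between arrays. Each window of 30 bases (GRCh38.p14) has its middle at the annotated start, with the longest run of C and T in capitals. The windows are chr2:101002274-101002303 on the plus strand for RPL31, chr12:112411428-112411457 on the minus strand for RPL6, chr15:63157463-63157492 on the minus strand for RPS27L and chr4:108620561-108620590 on the plus strand for RPL34.
RPL31: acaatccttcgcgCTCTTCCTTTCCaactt
RPL6: tatttgtaTCCTCagtgaatcagaaccaga
RPS27L: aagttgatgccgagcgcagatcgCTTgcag
RPL34: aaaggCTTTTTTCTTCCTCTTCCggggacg
The longest runs in the windows of RPL31 and RPL34 span 12 and 18 bases, whereas those of RPL6 and RPS27L span 5 and 3 bases. RPS15 and RPL11, the other members that varied least, had no C start, and their longest runs span 7 and 6 bases. In RPL31 and RPL34 a part of the run lies before the annotated start, so the run is longer than the tract at the start. A match in these windows is a description of the annotated start and not a measured transcript end.

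The labelled line was checked against marker genes. PAX2, LHX1, GATA3, WT1 and SIX2, the 5 of 9 listed HEK293 markers that were named, had group means between 5.59 and 7.61, above every array's median of 4.44 to 4.51. The fibroblast marker DCN (2.68 in mimic arrays, 2.65 in control arrays) and the leukocyte marker CD14 (3.84 and 3.89) lay below those medians, whereas LUM (5.74 and 5.68) did not. Of the 6 epithelial markers, EPCAM (7.94 in mimic arrays, 7.95 in control arrays), KRT19 (5.45 and 5.57) and CLDN7 (5.24 and 5.46) lay above the medians, ESR1 (4.46 and 4.56) lay near them, and KRT7 (3.82 and 3.87) and ALB (3.74 and 3.69) lay below. Of the 2 fibroblast, 1 leukocyte and 6 epithelial markers that were named, 0 passed the limma threshold described below. Of these, 1, the tight junction gene CLDN7 of the epithelial list, had an unadjusted p under 0.05, with a lower mean in mimic arrays (difference -0.22). Of the 5 HEK293 markers, 0 passed and 0 had such a p. Over all rows 10.8% had such a p. The level of background on these arrays is not known.

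No ribosomal protein gene differed between mimic and control arrays at a limma adjusted p under 0.05, and their differences were small on both sides of 0. Of the 52 genes, 0 passed that threshold, against 0.0112% of all 53617 rows. At an unadjusted p under 0.05 there were 3, RPL31, RPL6 and RPS27L, or 5.77%, which is below the 10.8% of all rows. All 3 had higher means in mimic arrays, against 5.36% of all rows that were higher and 5.4% that were lower at this p. Higher means also prevailed at this p among the 14884 named genes, with 995 higher and 623 lower. In the brightest 25% of rows there were 1549 higher and 598 lower in the same fit. The median difference was 0.0067 over the 52 genes and -0.0086 over all rows, and single genes ranged from -0.15 (RPL39L) to 0.27 (RPL31). The sign of the members' median was not stable: it was 0.022 with centred arrays, -0.015 after quantile normalization, -0.0023 without control replicate 6 and -0.0013 without mimic replicate 2. In 0 of the 52 did all 6 mimic arrays lie above or below all 6 control arrays, against 0.759% of all rows above and 0.414% below. In a fit of the brightest 25% of rows alone, 0 of the 44 members tested passed and 5 had an unadjusted p under 0.05, against 1.81% and 21.4% of all 13405 rows tested there.

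For most members the limma intervals were narrow relative to the scatter among these samples. That scatter may be no more than technical, so the intervals do not bound the effect of the treatment. In 44 of the 52 genes the 95% interval of the limma estimate lay within a 1.2-fold difference in either direction (0.263 on the log2 scale), against 54.1% of all rows and 74.6% of the brightest 25% of rows. The exceptions were RPL31, RPL32, RPL10L, RPL3L, RPL39L, RPS7, RPS18 and RPS27L. The bound of 1.2-fold was chosen after the values were seen, and the intervals are not adjusted for the number of genes. The split by sign depended on the scaling: 29 of 52 genes had higher means in mimic arrays as deposited, against 50.1% of all named genes, 35 of 52 with arrays centred on their medians and 21 after quantile normalization.

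**Figure D1:**
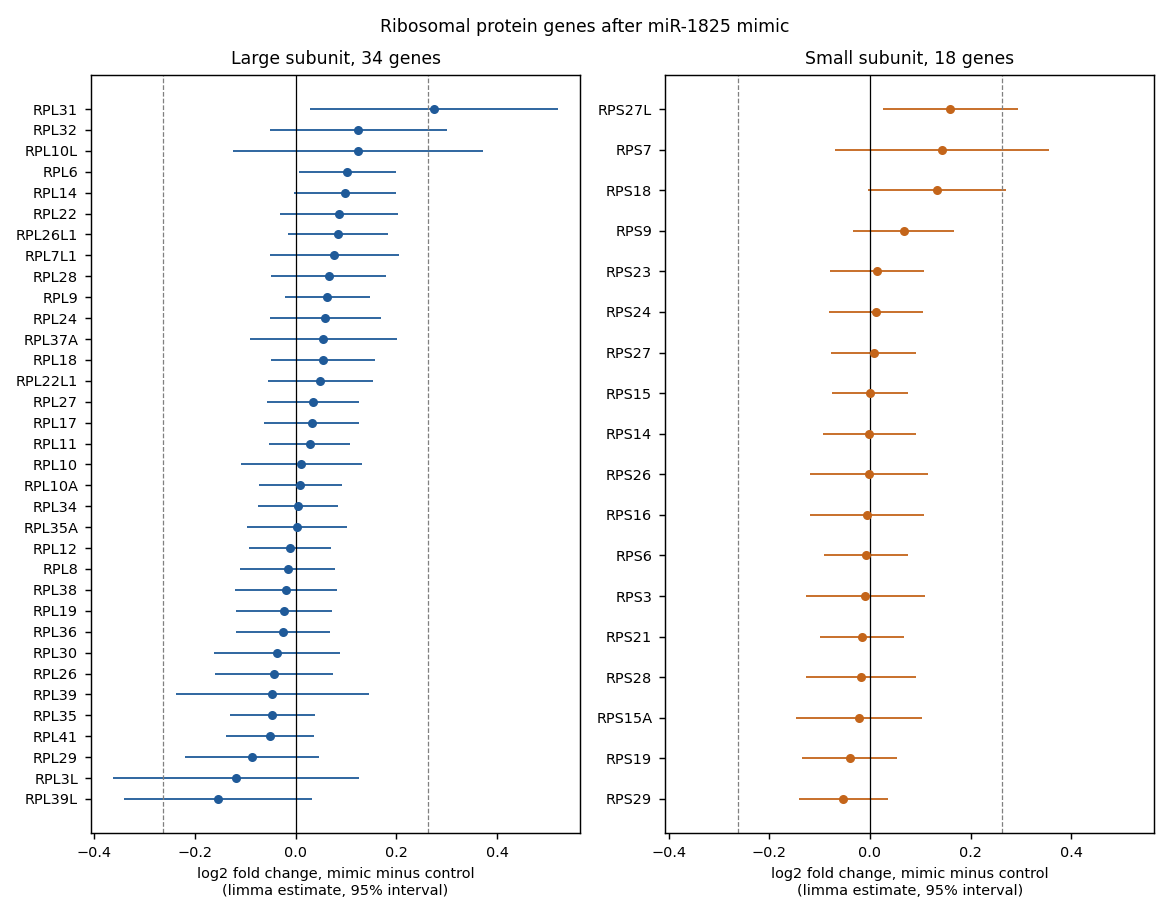
Log2 fold change (mimic minus control, x axis) of each ribosomal protein gene, large subunit on the left and small subunit on the right. Points are limma estimates and bars their 95% intervals (6 arrays per group), and dashed lines mark a 1.2-fold difference. Most intervals cross 0 and lie between the dashed lines, and RPL31 at 0.27 is the farthest point from 0.

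Among large-subunit genes, RPL31, whose protein sits near the exit of the peptide tunnel, had the largest difference. Its mimic arrays read 5.86, 5.98, 5.70, 5.88, 5.76 and 5.49 and its control arrays 5.47, 5.89, 5.19, 5.48, 5.67 and 5.33. The groups overlapped, and control replicate 2 read higher than every mimic array except mimic replicate 2. The means were 5.78 ± 0.17 in mimic and 5.51 ± 0.25 in control arrays (SD, n = 6 each), a 1.21-fold difference with a 95% interval of the log2 value from 0.028 to 0.52 (limma adjusted p = 0.420). RPL31 was also the large-subunit gene of the standard set with the widest spread between arrays, with a within-group SD of 0.21.

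RPL6, which contacts the expansion segments of the large rRNA, differed less but varied less. Mimic arrays read 8.06, 7.99, 7.97, 7.85, 7.92 and 8.01, and control arrays 7.87, 7.86, 7.86, 7.90, 7.88 and 7.81. Mimic replicate 4 alone lay within the control range. The means were 7.97 ± 0.074 and 7.86 ± 0.029 (SD, n = 6 each), or 1.07-fold (log2 difference 0.10, limma adjusted p = 0.438). RPL14, a neighbour of RPL6 in the large subunit, had means of 7.51 ± 0.080 in mimic and 7.41 ± 0.042 in control arrays (log2 difference 0.10, limma adjusted p = 0.480). In RPL14 mimic replicates 4 and 5 read 7.43 and 7.39, inside the control range of 7.34 to 7.45, and the other mimic arrays read 7.52 to 7.61.

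The other standard large-subunit genes with the smallest p-values were RPL9, at the base of the stalk, RPL22, which cells can do without for general translation, and RPL32. RPL9 averaged 9.24 ± 0.048 in mimic and 9.18 ± 0.027 in control arrays, RPL22 5.46 ± 0.10 and 5.37 ± 0.058, and RPL32 6.20 ± 0.18 and 6.08 ± 0.094 (SD, n = 6 each). Their log2 differences were 0.063, 0.086 and 0.12, with limma adjusted p values of 0.601, 0.608 and 0.618. In each of the 3, 5 of 6 mimic arrays lay above the control mean.

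Large-subunit genes of known special roles differed little. RPL11, which binds the 5S rRNA together with RPL5 and can inhibit MDM2 when free, averaged 11.26 ± 0.034 in mimic and 11.23 ± 0.031 in control arrays, a difference of 0.027 with an interval from -0.054 to 0.11. RPL10, added at the last step of large-subunit maturation, averaged 12.44 ± 0.091 and 12.43 ± 0.085, a difference of 0.011 with an interval from -0.11 to 0.13. RPL34, with the long run of C and T shown above, averaged 7.48 ± 0.029 and 7.47 ± 0.027 (difference 0.0054). RPL41, a peptide of the subunit interface and the shortest of these proteins, averaged 12.96 ± 0.044 and 13.01 ± 0.041 (difference -0.051). RPL35 had all 6 mimic arrays below the control mean, at 7.96 ± 0.038 against 8.01 ± 0.038, although the groups overlapped (limma adjusted p = 0.711).

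Among small-subunit genes, RPS27L had the smallest p-value of all 52 members. Its protein resembles RPS27, and its gene is known as a target of p53. Mimic arrays read 5.36, 5.28, 5.16, 5.12, 5.15 and 5.24, and control arrays 5.05, 4.89, 5.10, 5.05, 5.23 and 5.02. All 6 mimic arrays lay above the control mean, but control replicate 5 exceeded 3 of them. The means were 5.22 ± 0.090 and 5.06 ± 0.11 (SD, n = 6 each), 1.12-fold, with an interval of the log2 difference from 0.026 to 0.29 (limma adjusted p = 0.389).

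RPS18, a protein of the head of the small subunit, averaged 9.42 ± 0.097 in mimic and 9.29 ± 0.11 in control arrays, a difference of 0.13 (95% interval -0.0045 to 0.27, limma adjusted p = 0.480). Mimic replicates 1, 2 and 3 read 9.50, 9.52 and 9.51, above every control, and mimic replicates 4, 5 and 6 read 9.38, 9.34 and 9.30, within the control range of 9.08 to 9.39. RPS7, needed to process the small-subunit rRNA, averaged 5.91 ± 0.090 and 5.77 ± 0.24 (difference 0.14), where control replicate 3 at 5.32 was the lowest array. RPS9, which helps form the mRNA entry, averaged 6.51 ± 0.026 and 6.44 ± 0.084 (difference 0.067), with 6 of 6 mimic arrays above the control mean.

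**Figure D2:**
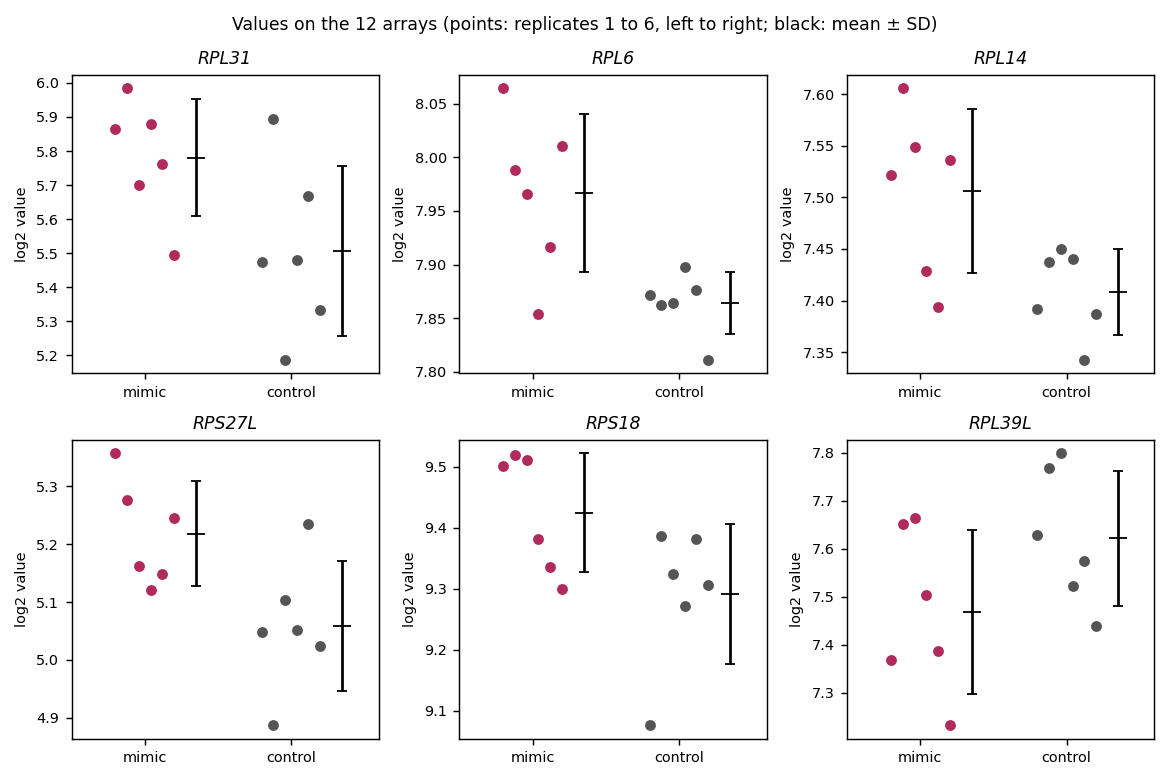
Log2 values (y axis, a scale of its own in each panel) of 6 named genes on each array, mimic on the left and control on the right, with replicates 1 to 6 from left to right and the mean ± SD (n = 6) in black. The groups overlap in every panel. RPL39L is the gene of the 6 with a lower mean in mimic arrays.

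Other small-subunit genes read nearly the same in both groups. RPS15, which takes part in the export of the small subunit from the nucleus, had the smallest spread of all members, with a mean of 13.06 ± 0.016 in mimic and 13.06 ± 0.013 in control arrays and a difference of 0.00031. RPS6, the substrate of the S6 kinases, averaged 8.06 ± 0.039 and 8.07 ± 0.033, a difference of -0.0084 with an interval from -0.092 to 0.075. RPS3, at the entry of the mRNA channel, averaged 8.25 ± 0.059 and 8.26 ± 0.10 (difference -0.0089). RPS19, a gene mutated in Diamond-Blackfan anaemia, averaged 12.13 ± 0.065 and 12.17 ± 0.040 (difference -0.040). RPS29, a zinc-binding protein of the head, had all 6 mimic arrays below the control mean, at 8.09 ± 0.039 against 8.14 ± 0.052 (limma adjusted p = 0.683). RPS21 and RPS15A had differences of -0.015 and -0.022.

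The large and small subunits were compared through their differences, since levels of different rows are not on a common scale. Of 34 large-subunit genes, 21 had higher and 13 lower means in mimic arrays, with a median of 0.019 and 2 at an unadjusted p under 0.05 (5.88%). Of 18 small-subunit genes, 8 lay above and 10 below 0. Their median was -0.0020, and 1 had such a p (5.56%). Both shares lay below the 10.8% of all rows. These splits depended on the scaling, with 22 of 34 large-subunit and 13 of 18 small-subunit genes above 0 with centred arrays, and 17 of 34 and 4 of 18 after quantile normalization. The small-subunit median was 0.013 with centred arrays and -0.027 after quantile normalization. The medians differed by 0.022, but their order varied across the ranges of mean level used below. Under 7 the medians were 0.066 for 9 large-subunit and 0.14 for 3 small-subunit genes. From 7 to 9 they were 0.030 (10 genes) and -0.0071 (8 genes), and at 9 or above -0.011 (15) and 0.00031 (7). The median size without regard to sign was 0.015 in the small subunit, against 0.050 in the large subunit. Under 7 it was larger in the small subunit (0.14 against 0.086), and in both higher ranges it was smaller. Without the 7 paralogs the medians were 0.010 for 28 large-subunit and -0.0025 for 17 small-subunit genes. The difference between subunits was not tested.

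On each array, the median deviation of the members from their own control means showed which arrays were high or low. Over all 52 genes it was 0.041, 0.059, 0.043, -0.011, 0.018 and -0.039 in mimic replicates 1 to 6, and -0.0034, 0.0043, 0.0097, -0.021, 0.019 and -0.011 in control replicates 1 to 6. Mimic replicates 1, 2 and 3 lay above every control and mimic replicate 6 lay below every control, so the groups overlapped. The SD between arrays was 0.037 in mimic and 0.015 in control arrays. The large subunit read higher than the small one in all 6 mimic arrays, by 0.0042 to 0.028, and in 2 of 6 control arrays, where the gap ran from -0.018 to 0.012. Each gene is set against its own control mean, so the control gaps scatter around 0 by construction. The counts of 6 and 2 arrays are therefore not a measured contrast between the groups. This gap averaged 0.019 ± 0.0086 in mimic and -0.0028 ± 0.0096 in control arrays (SD, n = 6 each), and the groups overlapped. Over all 14884 named genes the same measure stayed between -0.0076 and 0.016 in mimic arrays and between -0.020 and 0.017 in control arrays.

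**Figure D3:**
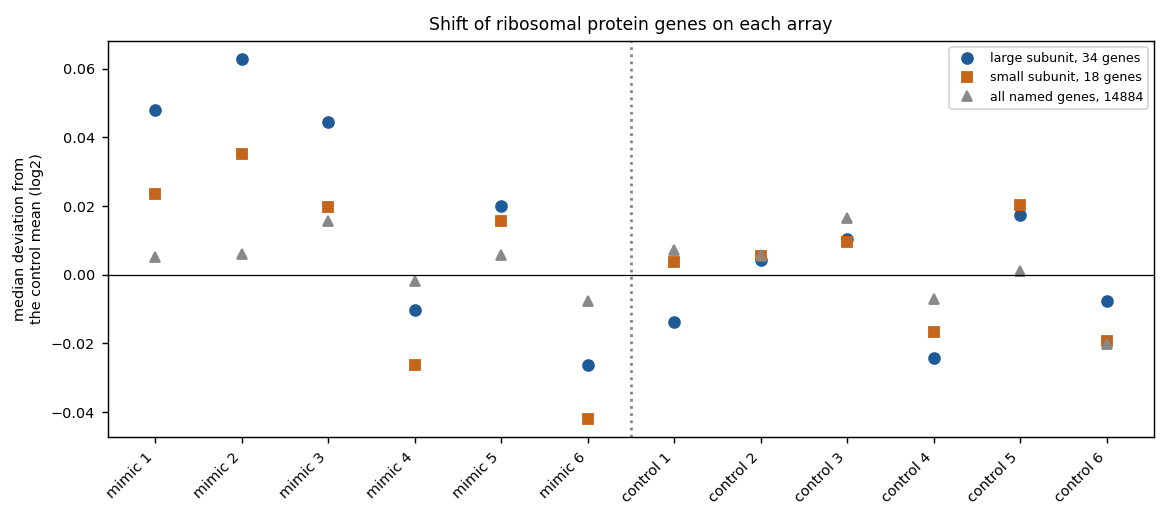
Median deviation from the control mean (log2, y axis) on each array, mimic arrays on the left and control arrays on the right, for the large subunit (circles, 34 genes), the small subunit (squares, 18 genes) and all named genes (triangles, 14884). Mimic replicates 1, 2 and 3 are high and mimic replicate 6 is low for both subunits.

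The 7 paralogs were set beside their standard genes where both were named. RPL22L1 averaged 6.92 ± 0.083 in mimic and 6.87 ± 0.050 in control arrays (difference 0.049), beside 0.086 for RPL22. RPL26L1 averaged 7.79 ± 0.056 and 7.71 ± 0.067 (difference 0.084, limma adjusted p = 0.543), with all 6 mimic arrays above the control mean, beside -0.043 for RPL26. RPS27L had 0.16, beside 0.0080 for RPS27, whose means were 12.91 ± 0.028 and 12.90 ± 0.047.

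RPL39L, best known from male germ cells, had the lowest difference of all 52. Mimic arrays read 7.37, 7.65, 7.66, 7.50, 7.39 and 7.23, and control arrays 7.63, 7.77, 7.80, 7.52, 7.57 and 7.44. The groups overlapped, and mimic replicates 2 and 3 lay above the control mean. The means were 7.47 ± 0.17 and 7.62 ± 0.14, or 0.899-fold, with an interval of the log2 difference from -0.34 to 0.033 (limma adjusted p = 0.553). RPL39, which lines the exit tunnel, had -0.046. RPL10L, also of the testis, averaged 3.44 ± 0.17 and 3.32 ± 0.26, and RPL3L, of heart and skeletal muscle, 5.13 ± 0.28 and 5.24 ± 0.11. Together with RPL31 these were the members that varied most, with within-group SDs of 0.22 and 0.21, and their differences were 0.12 and -0.12. Without single arrays the difference ran from 0.033 (without control replicate 3) to 0.17 for RPL10L, and from -0.22 (without mimic replicate 4) to -0.070 (without mimic replicate 2) for RPL3L. RPL7L1, known from large-subunit assembly, had 0.076.

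Differences were wider among dimmer rows. Of the 12 members with a mean under 7, 10 were higher and 2 lower in mimic arrays, and their median was 0.076, whereas the 43410 rows of the array in that range had a median of -0.018. The 18 members from 7 to 9 had a median of -0.0020 (all rows 0.020), and the 22 members at 9 or above had 11 higher means, 11 lower ones and a median of -0.0053 (all rows 0.019). At 9 or above, 0 of the 22 had an unadjusted p under 0.05 with limma, against 18.6% of the 3798 rows of the array in that range. An interval within 1.2-fold was present in 21 of the 22 and in 3217 of those 3798 rows. The dim members included 3 of the paralogs of the large subunit, RPS27L, RPL31, RPL32 and RPS7. These level ranges were set after the values were seen. Whether the level of a row has a part in these differences was not tested.

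**Figure D4:**
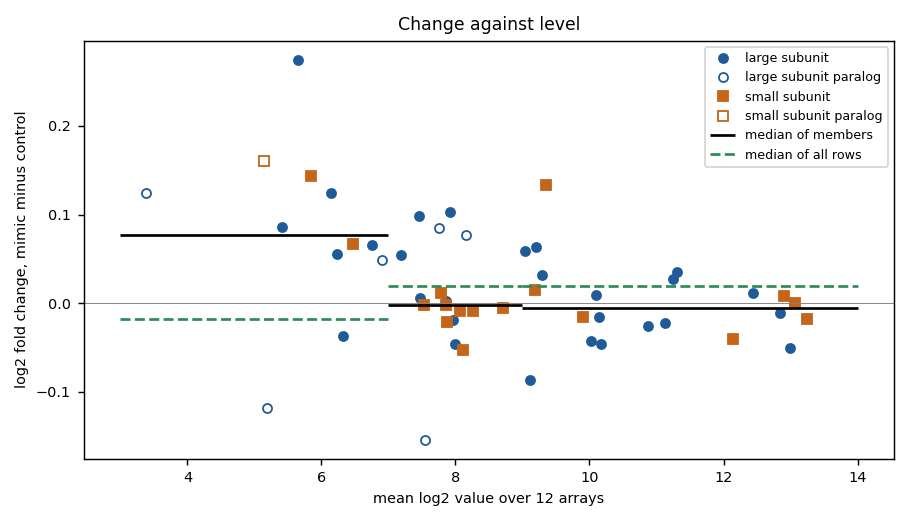
Log2 fold change (mimic minus control, y axis) of the 52 genes against their mean log2 value over all 12 arrays (x axis), circles for the large and squares for the small subunit, open symbols for paralogs. Black lines are medians of the members and dashed lines medians of all rows, for means under 7, from 7 to 9 and at 9 or above. Members at 9 or above lie between -0.087 (RPL29) and 0.13 (RPS18).

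Of the 52 genes, 4 had several rows, which did not always read alike. The 2 rows of RPS18 had differences of 0.13 (mean level 9.36) and -0.014 (mean level 8.12), and the second had a 95% interval from -0.11 to 0.082. The 5 rows of RPL41 had differences of -0.051, -0.084, -0.071 and -0.079 in the 4 brighter rows and 0.071 in the dimmest. RPL19 had -0.023 and -0.091, and RPL39 had -0.046 and -0.0031. All these intervals included 0, and within each gene the intervals of its rows overlapped.

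**Figure D5:**
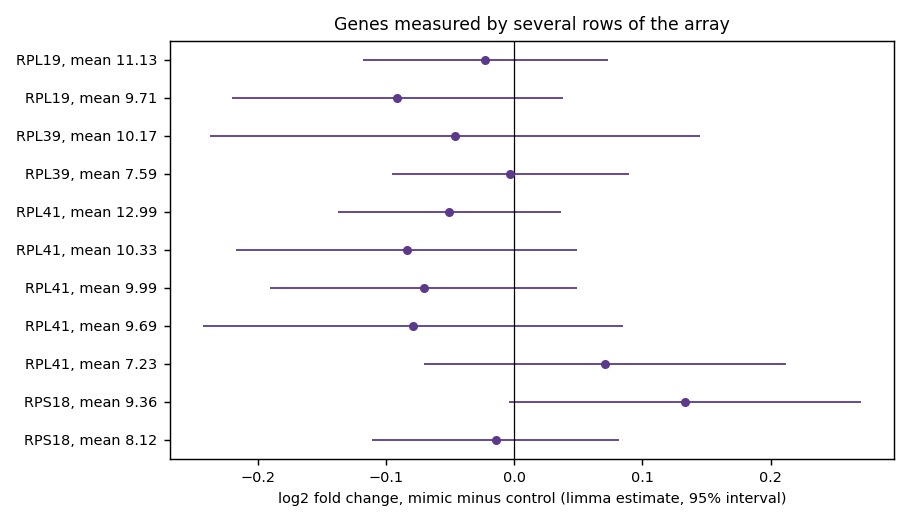
Log2 fold change (mimic minus control, x axis) with 95% intervals for each row of the 4 genes that had several rows, labelled with the row's mean log2 value over 12 arrays. The brighter RPS18 row, at 0.13, and the dimmest RPL41 row, at 0.071, stand to the right of the other rows of their genes.

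Ribosomal protein genes have many processed pseudogenes of near-identical sequence, whose transcripts could bind the same probes, so the assignment of a row to its gene is uncertain. Row numbers of the array largely follow the chromosomes. For 3 members, the brighter row of RPS18 and the rows of RPS27 and RPS28, all 10 nearest named rows belonged to genes of a chromosome other than the gene's own in RefSeq: chromosome 3 rather than 6 for RPS18, 12 rather than 1 for RPS27 and 11 rather than 19 for RPS28. The rows of RPL10, RPL12 and RPL31 and the brightest row of RPL41 had none of their own chromosome among those 10 neighbours, which were drawn from several chromosomes. RPL31, the gene with the largest difference, and RPS18 are therefore among the 7 members whose rows stand apart from their genes by number. RPL31P11, a pseudogene of RPL31, had its own row at 2.96 ± 0.063 in mimic and 3.09 ± 0.15 in control arrays (difference -0.13, limma adjusted p = 0.543). Of the 7 pseudogenes of members with a row, RPS15AP10 had the largest difference and the only unadjusted p under 0.05 (p from limma), with 4.17 ± 0.19 in mimic and 3.91 ± 0.20 in control arrays (difference 0.26, limma adjusted p = 0.403), beside -0.022 for RPS15A. The rows of RPL32P3 and RPL29P2 had differences of 0.079 and 0.075, beside 0.12 for RPL32 and -0.087 for RPL29.

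Correlations between members were taken after removal of the group means. Over 1326 pairs of members the median Pearson correlation across the 12 arrays was 0.13, with 0.11 for 714 pairs of the same subunit and 0.15 for 612 pairs of different subunits. The highest values were 0.91 for RPL10 with RPL35, 0.89 for RPL10 with RPS19 and 0.88 for RPL32 with RPS26. All pairs share the same 12 RNA samples and their scaling.

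Members with the C start described above at the annotated first base were set beside those without it. A member counted as without it can still hold a long run of C and T near its start, as RPS7 and RPL19 do with 11 bases. The split is therefore not one of TOP mRNAs against others, and it was taken from the values as deposited alone. The 29 members with a C start had 15 higher and 14 lower means in mimic arrays and a median of 0.0022, with 1 at an unadjusted p under 0.05. Of the 18 without it, 14 lay above and 4 below 0. Their median was 0.034, and 2, RPL6 and RPS27L, had such a p. These members without it include the paralogs RPL10L, RPL26L1, RPL7L1 and RPS27L, all above 0, so the split is also partly one of paralogs. The 5 members with no promoter entry all lay below 0, with a median of -0.037 and 0 at such a p. Over all rows 10.8% had such a p. The difference between these groups was not tested.

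Ribosomal genes outside the symbol pattern were FAU, which encodes RPS30 fused to a ubiquitin-like protein, and RPL36AL. FAU had a difference of -0.023. RPL36AL, a copy of RPL36A, had 6.50 ± 0.071 in mimic and 6.34 ± 0.055 in control arrays (SD, n = 6 each), with all mimic arrays, from 6.43 to 6.62, above all controls, from 6.28 to 6.41. All mimic arrays lay above all controls in 0.759% of all rows. Its difference was 0.15 with an interval from 0.052 to 0.25, and it did not pass with limma (adjusted p = 0.288).

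Genes that act with ribosomal proteins did not pass either. Of 11 other genes whose mRNAs carry a TOP tract, 0 passed with limma, 3 had higher and 8 lower means, and the median was -0.010. The exception in size was HNRNPA1, a splicing regulator, with values from 8.08 to 8.30 in mimic and from 7.88 to 8.13 in control arrays (difference 0.20, limma adjusted p = 0.259). The elongation factor genes EEF2, EEF1G and EEF1A1 had -0.010, -0.034 and -0.0012, and IMPDH2, of guanine nucleotide synthesis, had -0.092. Of 5 noncoding host RNAs of small nucleolar RNAs that start with a TOP tract, 4 had higher means, with a median of 0.096. Among them GAS5 averaged 9.85 ± 0.059 and 9.65 ± 0.099 (difference 0.20, limma adjusted p = 0.241), and SNHG5 had 0.11. These 5 host RNAs had 1 member at an unadjusted p under 0.05, GAS5, as did the 11 TOP mRNAs, HNRNPA1, where 10.8% of all rows had such a p.

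Of 10 regulators of ribosomal protein synthesis, 5 had higher and 5 lower means, with 0 past the limma threshold and 0 at an unadjusted p under 0.05, against 10.8% of all rows in this and the next lists. The kinase gene MTOR had -0.086 and RRN3, a factor for rRNA transcription, had 0.11. Of 11 chaperones and importers of ribosomal proteins, 6 had higher means, and the median was 0.034, with 1, LTV1, at an unadjusted p under 0.05. LTV1, an assembly factor of the small subunit, averaged 10.93 ± 0.071 in mimic and 10.79 ± 0.045 in control arrays (difference 0.13, limma adjusted p = 0.330), and TNPO1, an import receptor, had 0.077. In TNPO1 all mimic arrays lay narrowly above all controls, as in 0.759% of all rows. Of 8 targets of p53, which free RPL5 and RPL11 can activate through MDM2, 4 had higher and 4 lower means, with 1 in each direction at that p, BBC3 at -0.19 (limma adjusted p = 0.331) and SESN1 at 0.11 (limma adjusted p = 0.410), or 2 of 8 against 10.8% of all rows. RPS27L, itself such a target, stood beside a median of -0.013 in that list.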

How the data were processed

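RNA of 12 HEK293 samples was measured on Affymetrix Human Gene 2.0 ST arrays. The deposited values, 1 per transcript cluster (row) and array, came from Affymetrix Expression Console, according to the labels and per the submitters' processing notes. No version or setting for background correction, normalization or summarisation is stated there. They were read as log2 values, as deposited by the authors, because they run from 1.62 to 14.4. Rows were named through the platform annotation (16098 with 1 symbol, 0 with several, 37519 unnamed here), and all 16098 identifiers matched RefSeq (GRCh38.p14) with 0 symbols changed.

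All 53617 rows were fitted with limma 3.58.1 in R 4.3.3 (lmFit, eBayes without trend, no block), mimic minus control, two-sided, with Benjamini-Hochberg adjustment over all rows and a threshold of 0.05. The fit was tested on simulated data. Members and lists were chosen with earlier results of these data known. Genes were named by rule: the 8 smallest p-values per subunit, set roles, paralogs, the 3 smallest and 3 largest SDs, 3 genes whose rows differ most, and up to 2 genes per companion list. RPL35, RPS26, RPS28, RPL29, RPL24, RPL37A, RPL12, the pseudogenes and further list genes fall outside it and were chosen after their values were seen. Same-numbered arrays deviated together with correlations from -0.11 to 0.084, so the shared numbers were not taken as pairs. The number of arrays limits the precision.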

Additional observations from a re-analysis of the deposited data

Results flagged for a closer look

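In 112 groups of 6 arrays (each of the 52 genes, and the array medians of all members, of each subunit and of their gap, in both treatments), 5 had 1 array far from the others, where chance flags about 1 in 20. In mimic replicate 2, RPL24 read 9.14 while the remaining mimic arrays read 9.02 to 9.06. RPL34 was lowest in the same array at 7.42, against 7.48 to 7.51. RPL22 was lowest in mimic replicate 4 at 5.25, against 5.46 to 5.52. RPL37A was lowest in control replicate 6 at 5.89, against 6.21 to 6.32, and RPS18 was lowest in control replicate 1 at 9.08, against 9.27 to 9.39.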

How the results depend on the processing

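The count of 0 ribosomal protein genes past the limma threshold held under every alternative run. The count at an unadjusted p under 0.05, 3 higher and 0 lower, was 1 higher (RPL31) and 1 lower (RPL39L) with a replicate block. It was 2 higher and 1 lower after quantile normalization, 6 higher with a trend and robust prior, 5 higher among rows at or above the median and 5 higher among the brightest 25% of rows. In that last fit 21.4% of all 13405 rows had such a p. The share of all rows is not given here for the other runs, so their counts cannot be read as more or less than the background. Without single arrays it ranged from 0 to 6 higher and from 0 to 1 lower, with 0 higher without mimic-1825 replicate 1, 1 without mimic-1825 replicate 2 or control replicate 3 or 6, 6 without mimic-1825 replicate 4 and 5 without mimic-1825 replicate 5. The median of all members, 0.0067, was 0.022 with centred arrays, -0.015 after quantile normalization and -0.00063 in the brightest 25% of rows, and ran from -0.0023 (without control replicate 6) to 0.018 (without mimic-1825 replicate 6) without single arrays, with -0.0013 without mimic-1825 replicate 2. The large-subunit median, 0.019, was 0.0017 after quantile normalization and ran from 0.0069 (without control replicate 6) to 0.026 without single arrays. The small-subunit median, -0.0020, was 0.013 with centred arrays and -0.027 after quantile normalization, and ran from -0.0074 (without mimic-1825 replicate 2) to 0.014 (without mimic-1825 replicate 6) without single arrays. The gap between subunit medians, 0.022, was 0.012 in the brightest 25% of rows and 0.034 with the lowest-mean row per gene, and ran from 0.0086 (without mimic-1825 replicate 6) to 0.027 without single arrays, with 0.012 without control replicate 6. Of the 5 host RNAs with a TOP start, 1 passed in the brightest 25% of rows, GAS5 (limma adjusted p = 0.0480 there), against 1.81% of all 13405 rows tested there. The causes were not tested. Among 31 named genes, 4 changed sign after quantile normalization and 2 with centred arrays, none of them called. Without single arrays, from 1 to 3 of the 31 changed sign in each run. They came from among RPL10, RPL34, RPL39, RPS3, RPS6, RPS15, RPS15A and RPS27. Averaging a gene's rows was applied to the medians alone.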
